A study of Homo sapiens with 8 samples.

Results

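The genes examined here encode 7 subunits of the m6A writer, the nuclear complex that places N6-methyladenosine on messenger RNA: METTL3, METTL14, WTAP, KIAA1429 (VIRMA in current RefSeq naming), RBM15, ZC3H13 and CBLL1. The measurement was trimethylation of histone H3 at lysine 36 (H3K36me3) over these genes. All peaks that overlapped one of 7 gene spans by at least 1 bp were taken, which gave 16 of the 35375 peaks called in control cells and 24 of the 23488 peaks called after SETD2 knockdown. Positions are in hg19, and the rule for the peaks used gene names and positions and no signal value. The group of genes itself was chosen with earlier results of these data known.

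The cells were HepG2, an established human hepatocellular carcinoma line. They stably carried a lentiviral short hairpin RNA (shRNA), selected with puromycin, that was directed either at SETD2 or at no specific target. There were 8 libraries in 4 groups of 2 replicates: cells with either shRNA gave H3K36me3 immunoprecipitates and matching inputs. Peaks were called on merged replicates, so each condition gave 1 list, no spread between replicates could be had, and no test between the conditions was made. After removal of duplicates the pooled immunoprecipitates held 47880817 (control) and 67053273 (knockdown) tags. Neither the depletion of SETD2 nor the identity of the cells was measured here. Whether the knockdown cells were 1 clone or a mixed population is not stated in the labels.

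SETD2 is the methyltransferase that deposits H3K36me3 while it travels with elongating RNA polymerase II, and the mark therefore lies over the bodies of transcribed genes and is low at their promoters. The writer also acts while RNA is being made. METTL3 carries the catalytic site and forms a stable pair with METTL14, which holds the RNA substrate and has been reported to recognise H3K36me3. WTAP, KIAA1429, RBM15, ZC3H13 and CBLL1 make up the regulatory part that places this pair on RNA.

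Of the 7 genes, 6 had H3K36me3 peaks in control cells and 4 had them after SETD2 knockdown. METTL14, KIAA1429, ZC3H13 and CBLL1 were covered in both, METTL3 and WTAP in the control alone, and RBM15 in neither. Control peaks lay over 182 kb, or 73.4%, of the 247 kb in the 7 spans, and knockdown peaks over 95.8 kb, or 38.7%. The knockdown length in these genes was thus 52.7% of the size of the control length, against 48.4% over all peaks of the lists. Of the control length itself, 83.6 kb or 46.1% also lay under knockdown peaks. The knockdown calls were weak: at a false discovery rate (FDR, in percent as the authors' caller gave it) of 5% or less, 6 genes still had a control peak and 0 had a knockdown peak, where 50.5% of all control peaks and 5.30% of all knockdown peaks passed. In the 4 genes covered in both conditions, the tag density inside peaks was 1.81 to 2.13 times higher in the control. Densities are scaled to the filtered tags of each condition, of which 42.0% (control) and 12.8% (knockdown) lay in peaks. The ratios depend on this scaling and are not absolute differences in H3K36me3. Stretches without a peak do not enter these densities. Subtracting the density outside peaks (0.235 in the control, 0.337 in the knockdown) widened all 4 differences. That direction was fixed beforehand, because the larger value was taken from the lower density.

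The 5′ ends of the gene spans were free of peaks. No peak of either list lay over the stretch from 250 bases before to 50 bases after the 5′ end of any of the 7 spans. The same share over other gene starts was not computed. The 5′ end of the ZC3H13 span is rounded, and a control peak began 0.805 kb upstream of it. Whether that peak covers the annotated ZC3H13 start was not examined. Within 2 kb on either side of the span ends, control peaks covered 1.12 kb at METTL3 and 0.356 kb at METTL14. They covered 1.45 kb at WTAP, 1.20 kb at ZC3H13 and 0 kb at the other genes. Of the genes with peaks, the first control peak began 0.813 kb into WTAP, 0.883 kb into METTL3, 1.65 kb into METTL14, 3.16 kb into CBLL1, 6.17 kb into ZC3H13 and 9.49 kb into KIAA1429. In each of the 4 genes with knockdown peaks the first of them began farther in, at 2.17 kb in METTL14, 4.49 kb in CBLL1, 8.96 kb in ZC3H13 and 9.70 kb in KIAA1429. How often this holds over other genes was not computed. Throughout the list, control peaks that a knockdown peak overlapped were overlapped over a median of 68.5% of their length.

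Promoter windows of the same extent were listed by RefSeq (GRCh38.p14) for 6 of the 7 genes. They were not placed on hg19. Those of METTL3 and WTAP (called in the control alone), METTL14 (called in both) and RBM15 (called in neither) are shown 5′ to 3′ on the gene's strand. They stand for the 3 patterns of calls. Whether a peak covers these windows themselves was not examined. Of 2 WTAP starts the upstream one is given. Capitals mark the ETS factor core CGGAAG and the CCAAT box on either strand.

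METTL3: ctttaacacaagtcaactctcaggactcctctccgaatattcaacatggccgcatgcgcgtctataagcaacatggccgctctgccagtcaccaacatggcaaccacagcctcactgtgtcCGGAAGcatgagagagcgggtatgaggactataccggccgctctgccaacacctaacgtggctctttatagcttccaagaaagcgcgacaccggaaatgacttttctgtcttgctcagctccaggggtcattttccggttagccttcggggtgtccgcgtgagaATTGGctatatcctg

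METTL14: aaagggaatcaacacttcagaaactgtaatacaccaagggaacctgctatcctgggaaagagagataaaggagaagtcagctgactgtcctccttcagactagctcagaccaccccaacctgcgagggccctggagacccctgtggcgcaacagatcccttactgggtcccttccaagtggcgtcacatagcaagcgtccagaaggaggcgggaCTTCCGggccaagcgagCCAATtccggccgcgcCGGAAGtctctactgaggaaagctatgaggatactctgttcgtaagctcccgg

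WTAP: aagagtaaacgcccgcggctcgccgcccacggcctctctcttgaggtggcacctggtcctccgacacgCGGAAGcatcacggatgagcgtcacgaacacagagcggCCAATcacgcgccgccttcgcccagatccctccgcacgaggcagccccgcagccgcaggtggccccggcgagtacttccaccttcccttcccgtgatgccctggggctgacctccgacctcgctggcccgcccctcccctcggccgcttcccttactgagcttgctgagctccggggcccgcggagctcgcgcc

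RBM15: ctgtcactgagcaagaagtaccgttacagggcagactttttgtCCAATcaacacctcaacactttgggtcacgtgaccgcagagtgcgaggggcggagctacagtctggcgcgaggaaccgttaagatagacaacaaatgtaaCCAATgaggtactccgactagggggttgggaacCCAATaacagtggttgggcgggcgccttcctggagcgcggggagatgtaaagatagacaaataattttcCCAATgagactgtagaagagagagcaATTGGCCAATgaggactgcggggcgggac

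Both motifs were picked after the sequences had been seen. The ETS core was in a window of 5 of the 6 genes, all but RBM15, and in 19.5% of all 35116 RefSeq windows of this length. The CCAAT box was in a window of all 6, with 6 copies in that of RBM15, and in 34.6% of all windows. No match overlapped another. The second WTAP window held neither motif. Windows of METTL3 and RBM15 held 17 and 15 CG dinucleotides and that of METTL14 held 13, near the median of 14 over all windows, while both WTAP windows held 34. RBM15, the gene with no peak, did not stand apart from METTL3 and METTL14 in this count.

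**Figure D1:**
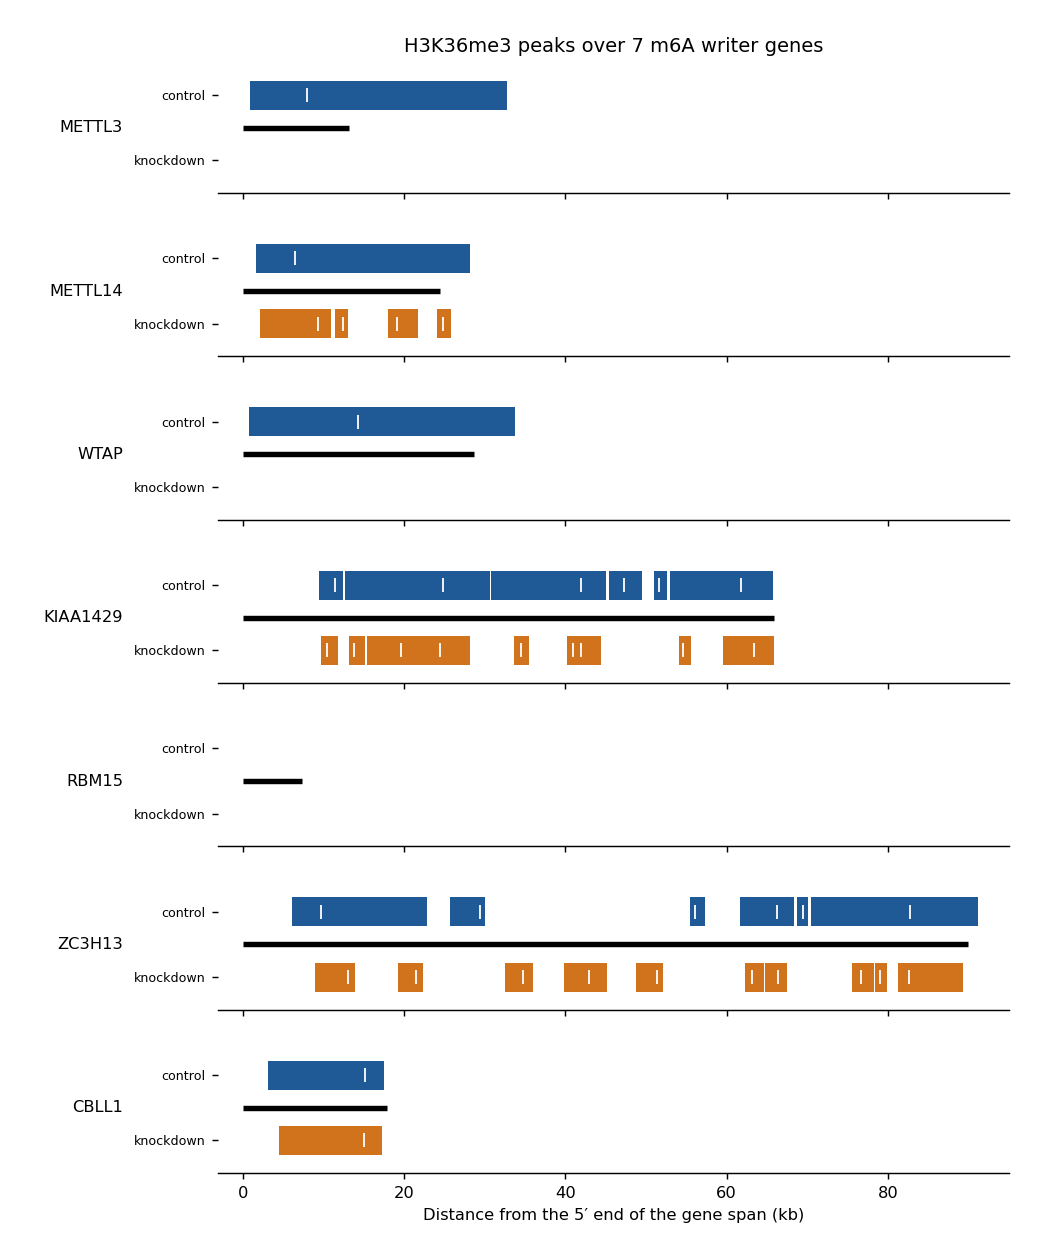
H3K36me3 peaks over the 7 genes, drawn by distance from the 5′ end of each span (x axis, kb). Black bars are the gene spans, blue boxes control peaks above them, orange boxes knockdown peaks below them, and white ticks the highest point of each peak. Single control boxes cover most of METTL3, METTL14, WTAP and CBLL1, the knockdown boxes of METTL14, KIAA1429 and ZC3H13 are shorter and more numerous, and METTL3, WTAP and RBM15 have no knockdown box.

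The catalytic subunit METTL3 lay under 1 of the largest control domains. Its span on chromosome 14 from 21966282 to 21979457 (reverse strand) was 93.3% covered by a single control peak from 21946637 to 21978574. That peak was 31.9 kb wide, held 5540 tags and had its highest point 7.93 kb into the gene, at 60.2% of the span. Its tag density, in tags per kb per 1000000 filtered tags (the unit of every density given), was 3.62 (Poisson 95% interval 3.53 to 3.72). By tags it ranked 383 among the 35375 control peaks, and its density was at or above that of 98.3% of them. Only 38.5% of the peak was inside METTL3. The other 19.6 kb lay beyond its 3′ end, on the side of TOX4, the next protein-coding gene, which RefSeq places on the opposite strand. The tags of the 2 genes cannot be told apart in this peak.

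No knockdown peak touched METTL3. The nearest one beyond its 3′ end was 28.3 kb away, 4.14 kb wide, with a density of 1.29. On the other side, past the METTL3 start, neither list had a peak within 100 kb.

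METTL14, the partner that METTL3 needs for activity, had a control peak that knockdown peaks overlapped in part. The gene spans 119606574 to 119631000 of chromosome 4 (forward strand). In the control, 1 peak from 119608219 to 119634735 covered 93.3% of it, with 2643 tags over 26.5 kb and a density of 2.08 (2.00 to 2.16). It ran 3.74 kb past the end of the span, towards SEC24D. In the knockdown the same stretch held 4 separate peaks. From 5′ to 3′ they were 8.82, 1.59, 3.75 and 1.81 kb wide, with densities of 1.00 (0.922 to 1.09), 0.751 (0.595 to 0.934), 1.09 (0.961 to 1.22) and 0.834 (0.679 to 1.01). The last of them had the least overlap with any span, 18.7% of its width. Together they covered 59.3% of the gene. Their FDRs ran from 26.3 to 84.9%, and that of the control peak was 0%.

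Over all 4 knockdown peaks the METTL14 density was 0.977 (0.919 to 1.04), and its log2 ratio to the control density was -1.09 (95% interval -1.20 to -0.99). This is 2.13 times higher in the control (1.98 to 2.29), the widest difference of the 4 genes with peaks in both lists, though its interval overlapped those of KIAA1429 and CBLL1. These intervals, here and below, come from exact counting statistics of 2 pooled libraries and do not measure the spread between cultures. Of all kept control peaks, meaning those overlapped by a knockdown peak, 8.09% had a lower ratio. The METTL14 domain was also among the more broken up: 4.04% of kept control peaks were overlapped by 4 or more knockdown peaks. It was at least as wide as 96.8% of all control peaks, and the share among peaks of like width was not computed.

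WTAP, which brings the METTL3 and METTL14 pair to nuclear speckles, had the densest control domain of the group. The gene is on chromosome 6 from 160148604 to 160177351 (forward strand), and a single control peak from 160149417 to 160182342 covered 97.2% of it. The peak was 32.9 kb wide and held 6024 tags at a density of 3.82 (3.73 to 3.92), with a fold enrichment of 15.11 by the authors' caller. It ranked 306 by tags among all control peaks, and 84.8% of it was inside the gene. Fold enrichment ranks peaks within a list and was not compared between lists.

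No knockdown peak touched WTAP either. The nearest knockdown peaks were 36.9 kb upstream, with a width of 12.7 kb and a density of 1.44, and 39.0 kb downstream, with a width of 4.18 kb and a density of 1.39. The next control peak downstream began 6.06 kb past the WTAP span, on the side of ACAT2. It was 26.7 kb wide, with 6021 tags and a density of 4.71, and it too had no knockdown peak over it. Upstream, the nearest control peak was 1.74 kb from the span, 3.78 kb wide, with a density of 1.13.

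The METTL3 and WTAP domains are the only control peaks of the group with more than 5000 tags, and together they held 47.2% of the 24494 control tags in its peaks. Domains this large were without a knockdown peak more often than somewhat smaller ones. Of the 477 control peaks with over 5000 tags, 65.4% (95% Clopper-Pearson interval 61.0 to 69.7%) were overlapped by a knockdown peak and 165 were not. At 2001 to 3000 tags, the class of the METTL14 domain, the share was 91.8% (89.9 to 93.5%). Control peaks with over 5000 tags had a median fold enrichment of 17.4 when kept and 16.2 when not, and the METTL3 and WTAP peaks had 10.66 and 15.11. With all control peaks split into 10 equal classes (deciles) by fold enrichment, 86.8% were kept in that of METTL3 and 90.4% in that of WTAP. The knockdown list had 19 peaks with over 5000 tags. The lists hold no tag counts outside called peaks, so the level of H3K36me3 over METTL3 and WTAP in the knockdown cells is unknown, and a missing call is not a measured loss. The part of the size or enrichment of these domains in the missing calls was not tested.

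**Figure D2:**
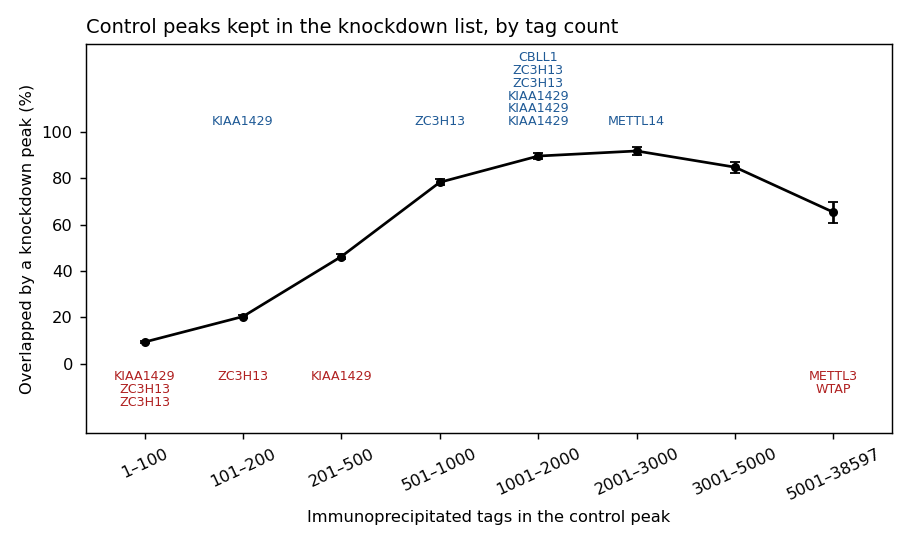
Share of control peaks overlapped by a knockdown peak (y axis, %, with exact 95% intervals) by the number of tags in the control peak (x axis, 8 classes), over all 35375 control peaks. Gene names stand in the class of their control peaks, blue above the line where a knockdown peak overlapped and red below where none did. The share peaks at 91.8% for 2001 to 3000 tags and is 65.4% in the class that holds METTL3 and WTAP.

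KIAA1429 (VIRMA), the large scaffold that holds the regulatory subunits together, was covered by a run of closely spaced control peaks. Its span on chromosome 8 from 95499921 to 95565757 (reverse strand) was 81.5% covered by 6 control peaks, 1.53 to 18.1 kb wide. Their densities ran from 0.849 to 2.05, and the densest and widest was the second from the 5′ end, with 1773 tags. The first 9.49 kb of the gene had no peak in either list.

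In the knockdown, 9 peaks covered 46.9% of KIAA1429. They were 1.10 to 7.81 kb wide, with densities from 0.702 to 1.10 and FDRs from 10.93 to 92.75%. Their densest and widest member was again inside the second control peak, 20.4 to 28.3 kb from the 5′ end, and its highest point at 24.5 kb was close to that of the control peak at 24.8 kb. All 9 overlapped control peaks. Of the 6 control peaks, 4 were kept, among them the first, with 181 tags. The 2 without a knockdown peak held 209 and 62 tags. Summed over the gene, control peaks had a density of 1.73 (1.68 to 1.78) and knockdown peaks one of 0.917 (0.876 to 0.959), a log2 ratio of -0.92 (-0.996 to -0.84).

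RBM15, an RNA-binding subunit that guides the writer to its targets, was the 1 gene with no peak in either list. Its span of 7.36 kb on chromosome 1 from 110881945 to 110889303 (forward strand) is the shortest of the 7. The nearest control peak lay 22.6 kb beyond its 3′ end, on the side of SLC16A4, with a width of 9.14 kb and a density of 1.40. The nearest knockdown peak was at almost the same place, 22.0 kb beyond, 6.10 kb wide, with a density of 1.18. Upstream, the nearest peaks were 282 kb away in the control and 281 kb in the knockdown. The stretch around RBM15 was thus without calls in both conditions, and its level below the calling limit is not known.

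ZC3H13, the zinc finger subunit that keeps the complex in the nucleus, was the least evenly covered gene with peaks. Its span on chromosome 13 from 46536000 to 46626000 (reverse strand) is the longest of the group, and 6 control peaks covered 56.2% of it. They fell into 2 blocks. The first and second peaks, 16.7 and 4.39 kb wide, lay between 6.17 and 30.1 kb from the 5′ end, and the others lay beyond 55.5 kb, with the widest, 20.7 kb at a density of 2.00 (1.91 to 2.09), over the 3′ end. The gap of 25.4 kb between the blocks held no control peak. Just outside the span, whose ends are rounded, a control peak of 40.7 kb with a density of 2.02 began 0.805 kb upstream, on the side of CPB2, and the nearest knockdown peak there was 19.7 kb away. Beyond the 3′ end both lists had a peak close by, at 1.502 kb in the control (density 1.34) and 1.89 kb in the knockdown (0.905).

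That gap held knockdown peaks. Of the 10 knockdown peaks over ZC3H13, 3 lay in it, between 32.5 and 52.1 kb from the 5′ end, and overlapped no control peak. Their densities were 0.883 (0.766 to 1.01), 0.860 (0.767 to 0.962) and 1.00 (0.873 to 1.14), within the range of the other 7 knockdown peaks of the gene, 0.772 to 1.08. They were the only 3 of the 24 knockdown peaks in the group to lie off the control peaks, or 12.5%, while 17.0% of all knockdown peaks did so. Their FDRs were 67.0, 47.7 and 67.2%, within the 45.3 to 89.7% of the other 7. With the span cut into 3 equal parts, the middle part of ZC3H13 was 6.70% covered by control peaks and 40.4% by knockdown peaks, the one such part of the 7 genes with more coverage in the knockdown. The 5′ part was 70.1% and 27.0% covered, and the 3′ part 91.8% and 58.0%.

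Summed over ZC3H13, control density stood at 1.66 (1.61 to 1.71) and knockdown density at 0.919 (0.882 to 0.957). The log2 ratio was -0.86 (-0.93 to -0.78), or 1.81 times higher in the control. The 3 peaks in the gap enter the knockdown sum and have no control counterpart. The kept peaks of the 3′ block differed more than the sum: -1.10 (-1.30 to -0.90) for the fourth and -1.08 (-1.20 to -0.96) for the sixth from the 5′ end, against -0.72 (-0.87 to -0.56) for the first.

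CBLL1 (HAKAI), a RING-type ubiquitin ligase found in the complex, had the control peak with the largest share under a knockdown peak. The gene is on chromosome 7 from 107384142 to 107402000 (forward strand). A single control peak from 107387300 to 107401642 covered 80.3% of it with 1722 tags, and a single knockdown peak from 107388636 to 107401430 covered 71.6% with 1165 tags and an FDR of 35.1%. The knockdown peak took up 89.2% of the control peak, and 76.8% of all kept control peaks were overlapped over a smaller share of their length. Both peaks were highest near the 3′ end, 15.2 kb into the gene in the control and 15.1 kb in the knockdown. Control density was 2.51 (2.39 to 2.63) and knockdown density 1.36 (1.28 to 1.44), a log2 ratio of -0.88 (-0.99 to -0.78). The knockdown peak began 4.49 kb into the gene and the control peak 3.16 kb. No other peak lay within 100 kb of the gene in either list.

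**Figure D3:**
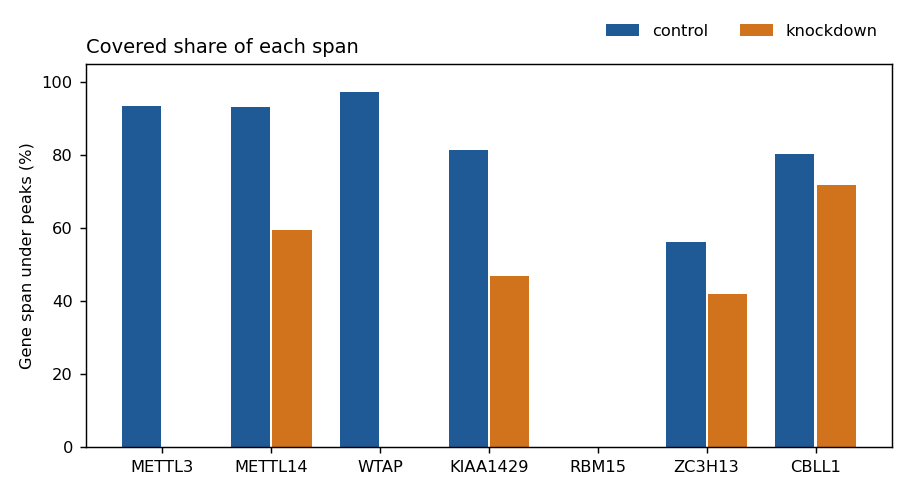
Share of each gene span that lay under peaks (y axis, %) in the control (blue) and the knockdown (orange), 1 pooled list each. The control bars of the 6 genes with peaks run from 56.2% to 97.2%, the knockdown bars stand at 0 for METTL3, WTAP and RBM15, and CBLL1 has the smallest gap among the genes covered in the control, 80.3% against 71.6%.

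Ordered by density, the control domains ran WTAP (3.82), METTL3 (3.62), CBLL1 (2.51), METTL14 (2.08), KIAA1429 (1.73) and ZC3H13 (1.66). Only the last 2 had overlapping intervals. In the knockdown the order was CBLL1 (1.36), METTL14 (0.977), ZC3H13 (0.919) and KIAA1429 (0.917), and the intervals of the last 3 overlapped. METTL3 and WTAP, with the densest control domains, have no knockdown value. The METTL3 value is that of its whole peak, of which 38.5% was inside the gene. Single knockdown peaks ran from 0.702 to the 1.36 of CBLL1. Outside all peaks, control tags had a density of 0.235 and knockdown tags 0.337.

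**Figure D4:**
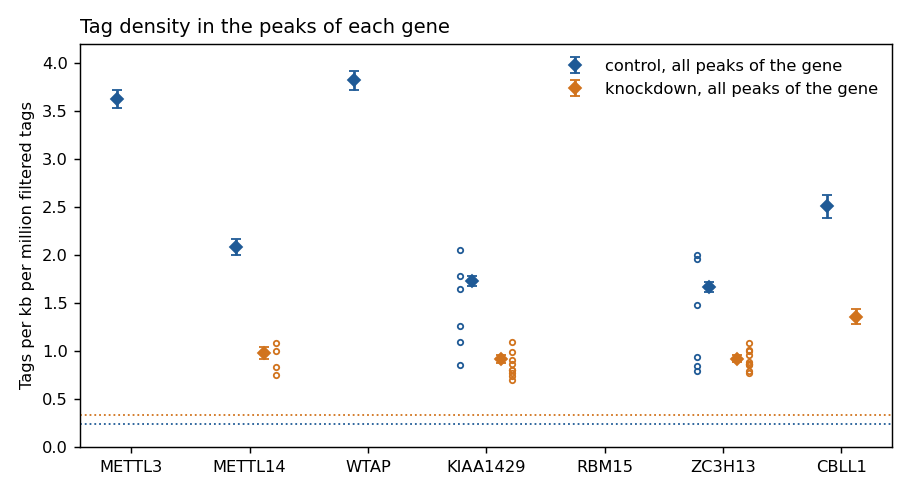
Tag density inside peaks (y axis, tags per kb per 1000000 filtered tags) for each gene in the control (blue) and the knockdown (orange). Diamonds are all peaks of a gene summed, with Poisson 95% intervals, open circles the single peaks where a gene had more than 1, and dotted lines the density outside all peaks of each list (0.235 and 0.337). Control diamonds lie between 1.66 and 3.82 and knockdown diamonds between 0.917 and 1.36.

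Set beside all peaks of their list, the control peaks of the writer genes were mostly wide and enriched, and the knockdown peaks ordinary. The overlap rule favours wide peaks, and peaks over other genes were not taken as a separate comparison. The median control peak of the group was 13.5 kb wide with a density of 1.71, against 3.66 kb and 1.10 over the whole list, and 9 of 16 were 10 kb or wider. The median knockdown peak was 3.14 kb wide with a density of 0.867, against 3.27 kb and 0.907 over the whole list, and 1 of 24, that of CBLL1, reached 10 kb. At an FDR of 5% or less were 11 of the 16 control peaks, with at least 1 in each of the 6 genes, while 50.5% of all control peaks passed. Of the 24 knockdown peaks 0 passed, and 5.30% of all knockdown peaks did. The lowest FDR among the 24 was 10.93%, at the fourth knockdown peak of KIAA1429. The knockdown calls over the writer genes thus rest on the p-value limit of 1e-05 alone.

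Of the 16 control peaks, 9 were overlapped by a knockdown peak, or 56.3% (95% Clopper-Pearson interval 29.9 to 80.2%), while 39.5% of all control peaks were. With an FDR of 5% or less asked of both lists, 0 of 11 were. Peaks of 1 gene are neighbours and not independent, so the interval is too narrow. Over all control peaks the kept share rose with fold enrichment, from 8.34% in the lowest decile to 90.4% in the highest. The METTL3, METTL14, WTAP and CBLL1 peaks, and the widest of KIAA1429 and of ZC3H13, were in deciles 9 and 10. The 39.5% is thus not a share for peaks of like enrichment. The 9 kept peaks came from METTL14, KIAA1429, ZC3H13 and CBLL1. Of the 7 without a knockdown peak, 5 were peaks of KIAA1429 and ZC3H13 with 49 to 209 tags, and the others were the METTL3 and WTAP domains. Control peaks without a counterpart were thus found at both ends of the size range.

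All 9 kept peaks were less dense in the knockdown, and 97.0% of all kept control peaks were. By 1.5-fold or more, all 9 were lower, and 59.2% of all kept control peaks were. Their log2 ratios ran from -1.10 to -0.66 with a median of -1.01, and the median over all 13963 kept control peaks was -0.66 (quartiles -0.86 and -0.44). The ratio was lower where control enrichment was higher throughout the list: its median was -0.92 in the highest decile of control peaks by fold enrichment and -0.13 in the lowest. Of the 9 peaks, 8 were in deciles 8 to 10, where the median was -0.79 (quartiles -0.96 and -0.62). Control tags enter both the ratio and the enrichment, which ties them to each other in part.

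**Figure D5:**
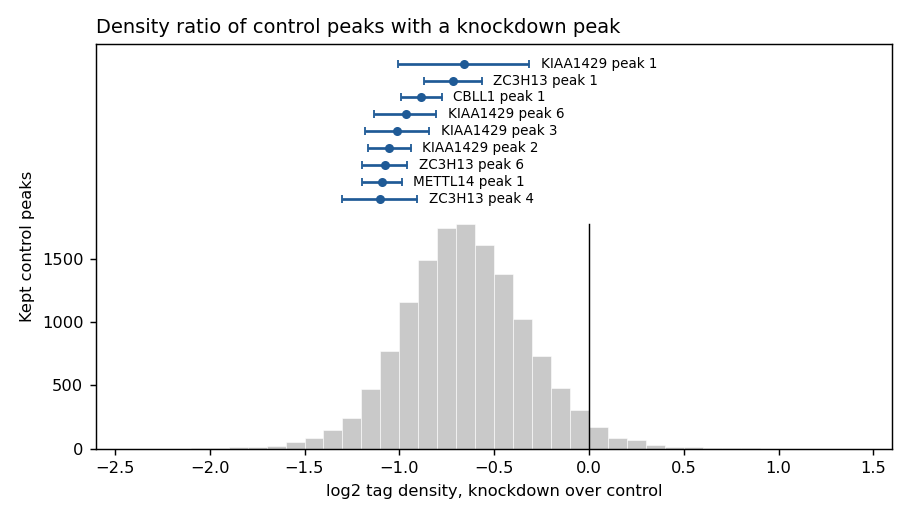
Log2 ratio of tag density, knockdown over control (x axis), for the 9 kept control peaks of the writer genes (blue points with exact 95% intervals, peaks numbered from the 5′ end) above the distribution over all 13963 kept control peaks (grey bars, y axis, number of peaks). The points lie between -1.10 and -0.66, and the median of the grey bars is -0.66.

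Around the genes, coverage was lower in the knockdown too, with 1 exception. Within 100 kb on either side of the 7 spans, control peaks covered 341 kb and knockdown peaks 130 kb, which is 38.1% of that length. These lengths include the parts of the genes' own peaks that ran past the span ends. At METTL3 that part was 19.6 kb of the 81.0 kb of control length. By gene, the knockdown length was 14.6% of the control length around KIAA1429, 19.4% around ZC3H13, 26.5% around WTAP, 34.4% around METTL3 and 48.1% around METTL14. Around RBM15 it was more, 24.0 kb against 19.4 kb, and CBLL1 had no flanking peak. Inside the spans the same ratio of lengths was 57.5% for KIAA1429, 74.4% for ZC3H13 and 63.6% for METTL14, each above that of the gene's own flanks. In ZC3H13, 12.1 kb of the knockdown length lay off the control peaks, and 50.4% of the control length was also under knockdown peaks. For METTL3 and WTAP they were 0. On the whole chromosomes of the 7 genes the knockdown length was 34.8% (chromosome 4, METTL14) to 68.7% (chromosome 1, RBM15) of the control length.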

How the data were processed

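H3K36me3 ChIP-seq and input DNA from HepG2 cells with a control or a SETD2 shRNA were available as 1 table of peaks per condition. The submitters' processing notes name hg19, the aligner Bowtie 1.1.2 and the quality check FastQC 0.11.5. MACS 1.4.2 made the peak calls, per the file headers (p-value limit 1e-05, 1 duplicate per position) from merged replicates and merged input. The deposited tag counts are whole tags per peak, not normalized. The deposited score is minus 10 times the log10 of the peak's p-value, the fold enrichment is the ratio over local input, and the FDR is in percent, all as the authors' caller gave them. The deposited peak widths were used as lengths. The shorter lists hold exactly the peaks with an FDR of 5% or less, as checked peak by peak.

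Filtered tags, per the file headers, were 47880817 (control) and 67053273 (knockdown). Density divides a peak's tags by its width in kb and by every 1000000 filtered tags; its 95% intervals are Poisson. Ratios carry exact conditional 95% intervals, and shares exact Clopper-Pearson ones. Intervals cover counting error only. Peaks overlapping a span by 1 bp or more were taken whole. Per gene, tags and widths were summed. The spans are those of the selection rule, some with rounded ends. Strand and gene order came from RefSeq (GRCh38.p14), except the strand of KIAA1429, which is textbook knowledge. All 7 genes and their peaks are named, with peaks within 100 kb as surroundings. The members and lists were chosen with earlier results of these data known. Other m6A genes and markers of liver cells were not analysed here, since they need positions on hg19. Python 3.11.15, pandas 2.3.3, NumPy 2.4.6, SciPy 1.17.1 and matplotlib 3.10.9 were used, and the overlap and ratio steps were tested on simulated data.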

Additional observations from a re-analysis of the deposited data

How the results depend on the processing

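The control calls held under all settings tried: 5 or 6 genes with a control peak and 156 to 209 kb covered. The value of 5 came from asking for at least 50% of a peak inside the span, which drops METTL3. How many knockdown calls remained varied with the limit. At an FDR of 5% or less, and equally in the shorter deposited lists, 0 genes had a knockdown peak, 0 kb were covered and 0 control peaks of the group were kept. With a fold enrichment of 5 or more, 1 gene (CBLL1), 12.8 kb and 1 kept control peak were left. A score of 100 or more, spans widened by 5000 bp, peaks at least 50% inside the span, 50% of the control peak overlapped and peaks joined within 3000 bp each left these counts within 1.5 times.

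The density ratios were below 0 under all settings. With the density outside peaks subtracted, the log2 ratios were -1.53 for METTL14, -1.37 for KIAA1429, -1.30 for ZC3H13 and -1.15 for CBLL1. This subtraction could only lower the ratios, because the knockdown had the lower density in peaks and the higher one outside them. Over the outer bounds of both lists' peaks, they were -1.82, -1.71, -1.31 and -1.05 in the same order. There, uncalled stretches of either list count as 0 tags. Each density is then a lower bound, and the ratio is bounded in neither direction. In pairs of peaks with reciprocal overlap of 50%, KIAA1429 was left with 1 pair, at -0.66 (-1.01 to -0.32), and METTL14 and ZC3H13 had no such pair. All tags as depth, and peaks at least 50% inside the span, gave values inside the counting intervals. No paired analysis was possible because the peaks come from merged replicates, and for the same reason no replicate could be left out.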
